A study of Homo sapiens with 8 samples.

Results

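The activin axis was followed in normal human fibroblasts exposed to medium from fibroblasts entering RAS-induced senescence. The 8 genes described are INHBA and INHBB, which encode the activin subunits, FST, FSTL1 and FSTL3 of the follistatin group, and the activin receptors ACVR1B, ACVR2A and ACVR2B. They were chosen by gene symbol and are 8 of the 27696 genes in the table, each with 1 row. IMR90, a human fibroblast strain from embryonic lung, received for 3 days medium conditioned by IMR90 ER:RAS cells, the same strain carrying a RAS fusion that is switched on by 4-hydroxytamoxifen (4-OHT). The donor cells had been given 4-OHT for 0, 4, 7 or 10 days, so a group's name, such as D4, gives the donors' time in 4-OHT. D0 is medium from ER:RAS donors before induction, and the recipients of all groups were IMR90 cells without the construct. The labels describe 2 independent experiments with 1 library per medium in each, so 8 libraries were analysed, and since IMR90 is a single strain the spread between them is that between experiments on 1 genetic background.

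Activins are dimers of inhibin beta subunits and belong to the TGF-β family. A dimer binds a type II receptor, which recruits and phosphorylates a type I receptor, and SMAD2 and SMAD3 then carry the signal to the nucleus. Follistatin wraps around the dimer and keeps it from its receptors, and the gene encoding it is itself a known target of activin signaling. Fibroblasts are a known source of activin A, the dimer of 2 products of INHBA, in wound repair and fibrosis.

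The 8 libraries held 11708193 to 13395912 counts. Of the fibroblast markers checked, none of 9 was at 0 throughout, and their summed level was 30284 to 46796 CPM (counts scaled to a library of equal size) in 7 libraries and 10060 CPM in D10 of experiment 2. In that library COL1A1, a fibrillar collagen chain, was at 1295 CPM against 9432 CPM in D10 of experiment 1. The summed levels of 5 epithelial markers, 4 endothelial markers and the leukocyte markers PTPRC, CD68, CD14 and LYZ stayed at 45.9 to 94.8, 1.12 to 3.9 and 1.53 to 3.77 CPM. CD3E, also on the leukocyte list, gave no value. The epithelial sum came mainly from KRT8 (18.8 to 30.7 CPM) and KRT18 (22.6 to 62.8 CPM), while EPCAM, CDH1 and KRT19 reached at most 1.94 CPM. HRAS and ESR1, the genes from which the donor construct is named, summed to 33.2 to 66.1 CPM. Because D10 of experiment 2 stands apart, the D10 changes of INHBA and FST from D0 are given with and without it. Fits with the replicate block were not repeated without it, and the part of its low collagen level in the results was not tested.

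The results turn on INHBA and FST, so the RefSeq promoter windows of both are shown, from 250 bases before to 50 bases after the annotated start on GRCh38.p14 and in the direction of transcription. Capitals mark matches to motifs searched on both strands. In the INHBA window, chr7:41703041-41703340 on the minus strand, the capitals are TATAAA. In the FST window, chr5:53480379-53480678 on the plus strand, they are TGANTCA, the letters of an AP-1 site, and then an NF-κB motif.
INHBA: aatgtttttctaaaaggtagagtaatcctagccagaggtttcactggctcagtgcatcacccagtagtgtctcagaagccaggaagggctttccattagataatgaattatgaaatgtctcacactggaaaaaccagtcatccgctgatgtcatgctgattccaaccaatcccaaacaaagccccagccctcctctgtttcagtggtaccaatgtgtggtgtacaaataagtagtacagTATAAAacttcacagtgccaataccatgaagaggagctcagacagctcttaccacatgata
FST: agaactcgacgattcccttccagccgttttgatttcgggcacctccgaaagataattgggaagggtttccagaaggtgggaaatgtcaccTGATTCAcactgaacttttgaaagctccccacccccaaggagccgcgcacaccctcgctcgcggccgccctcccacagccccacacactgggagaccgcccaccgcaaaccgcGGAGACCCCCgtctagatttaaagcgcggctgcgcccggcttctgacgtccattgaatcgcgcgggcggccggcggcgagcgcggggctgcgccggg

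The INHBA match began at position -11 from the start and the FST matches at -160 and -47. Of 35116 promoter windows, 11.5% held TATAAA, 7.71% the AP-1 letters and 5.91% the NF-κB motif. The cyclic AMP response letters TGACGTCA (1.85% of windows) and the SMAD letters GTCTAGAC (0.202%) were found in none of the 7 genes that had 1 window. Among the other genes, FSTL3 held TATAAA at -29, and the NF-κB motif lay at -150 in INHBB and at -248 in FSTL1. A match describes letters in a window and not a bound site. The RefSeq starts used here differ from the outer ends of the GENCODE 29 genes. The INHBA and FSTL1 windows lie wholly inside those gene bounds, and so do both marked FST matches. Their positions are thus upstream of the RefSeq start only.

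INHBA lies on chromosome 7 from 41667168 to 41705834 on the minus strand of GRCh38, in GENCODE 29, and is listed as ENSG00000122641.10. In CPM, scaled by edgeR's TMM method, its level in experiment 1 was 33.1 with D0 medium, then 15.4, 19.3 and 33.1 with D4, D7 and D10 medium. In experiment 2 it was 68.3, 36.5, 33.9 and 217 CPM. In both experiments INHBA was thus lower with D4 and D7 medium than with D0 medium, and it stood far above all other libraries in D10 of experiment 2, with 2747 counts there against 199 to 939 elsewhere. Within experiments 1 and 2 the log2 change from D0 was -1.09 and -0.90 for D4, then -0.77 and -1.01 for D7, and finally 0.00 and 1.66 for D10. At none of these days did the levels pass edgeR's quasi-likelihood test, with a fitted log2 fold change of -0.97 ± 0.81 (SE) for D4, -0.93 ± 0.81 for D7 and 1.30 ± 0.81 for D10 medium and adjusted p-values of 1, 1 and 0.91. With the experiment as a replicate block the log2 fold changes were -1.01 ± 0.39 for D4, -0.88 ± 0.39 for D7 and 0.97 ± 0.38 for D10. The standard errors were smaller, and none passed (adjusted p = 0.53, 0.474 and 0.222, edgeR). Since RNA was taken from whole cultures, fewer expressing cells and less RNA per cell cannot be told apart.

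**Figure D1:**
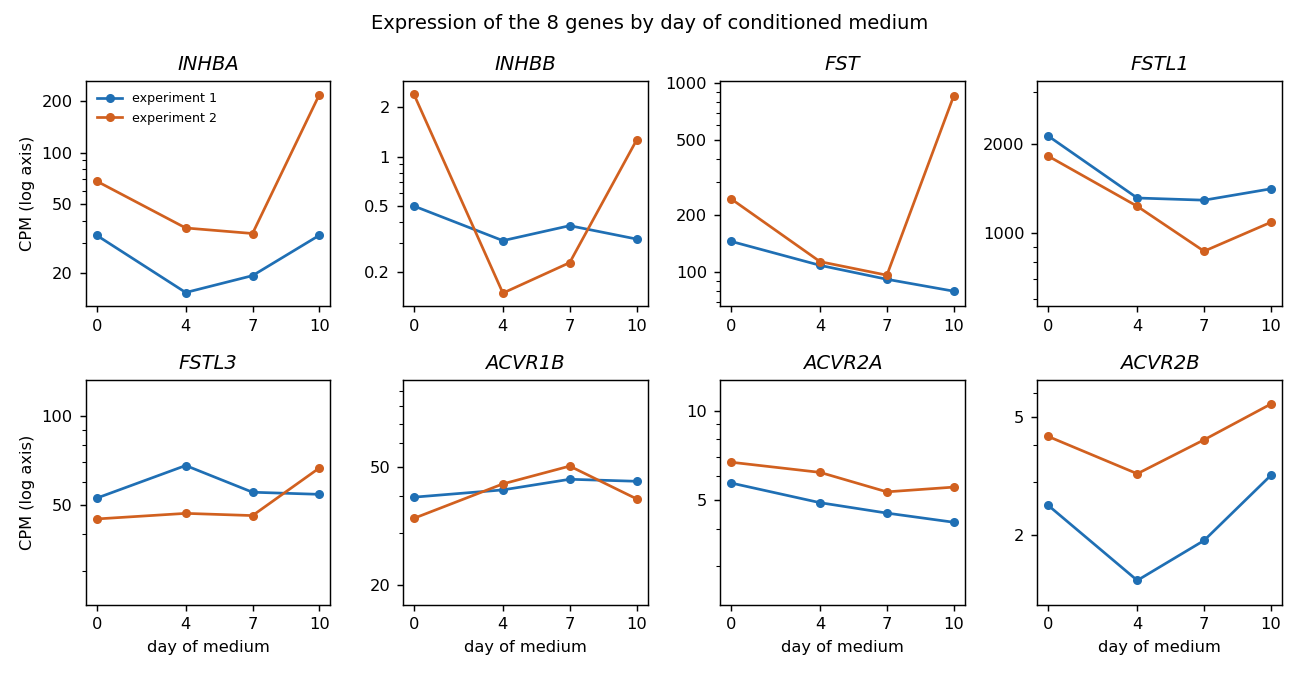
Level of each gene in CPM (log axis, scaled per panel) against the day of the conditioned medium, with 1 point per library and a line joining the libraries of an experiment. INHBA and FST reach 217 and 856 CPM in D10 of experiment 2, against 33.1 and 79.6 CPM in D10 of experiment 1, while FSTL1 is below its D0 level at every later day.

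Set against D4 rather than D0, INHBA was higher at D10 in both experiments. The fitted log2 fold change of D10 against D4 was 2.27 ± 0.84 (adjusted p = 0.752, edgeR). With the experiment as a replicate block it was 1.98 ± 0.40 and passed the threshold (adjusted p = 0.0402), as it did when no filter on low counts was used (adjusted p = 0.0299). Within experiments 1 and 2 the log2 change from D4 to D10 was 1.09 and 2.57. Without D10 of experiment 2 the fit with no experiment term gave 0.35 ± 0.63. That fit sets D10 of experiment 1 against D4 of both experiments, which differ in INHBA level. The size of the fitted rise thus depends in part on D10 of experiment 2. The fit with the replicate block was not repeated without that library.

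INHBB encodes the beta subunit of activin B and lies on chromosome 2 from 120346143 to 120351808 (plus strand, ENSG00000163083.5). It was close to the limit of detection, with 6, 4, 5 and 4 counts in experiment 1 and 33, 2, 3 and 16 counts in experiment 2 at D0, D4, D7 and D10. Only the D0 and D10 libraries of experiment 2 rose above 1 CPM (2.4 and 1.26), and the gene entered the tests through them. Summed over both libraries, the normalized ratio to D0 was 0.15 at D4 (95% exact interval 0.052 to 0.357), 0.201 at D7 (0.0809 to 0.435) and 0.52 at D10 (0.287 to 0.914), intervals that cover counting error only. In experiment 1 the counts could not show a difference at this depth. The fitted log2 fold change at D4 was -2.63 ± 0.99, and without D0 of experiment 2 it was -1.10. Since the gene was kept by the filter for its high D0 and D10 libraries, these values are given as a description.

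FST encodes follistatin, the high-affinity activin antagonist, and lies on chromosome 5 from 53480409 to 53487134 (plus strand, ENSG00000134363.11). Its level in experiment 1 was 146, 109, 92 and 79.6 CPM at D0, D4, D7 and D10, a lower value with each later medium. In experiment 2 it was 245, 114, 96.7 and 856 CPM, so that the D4 and D7 levels lay within a few CPM of those in experiment 1 while the D10 level was the highest of all 8. From D0 this was a log2 change of -0.42 and -1.10 for D4, then -0.67 and -1.34 for D7, and finally -0.88 and 1.80 for D10. At D4 and D7 both libraries lay below both D0 libraries, as for 12.6% and 15.2% of all genes tested, and at D10 the experiments went in opposite directions. None of these differences passed the test (adjusted p = 1, 1 and 0.954, edgeR), and the D10 estimate of 1.26 ± 0.84 averages a rise and a fall.

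FSTL1, a secreted glycoprotein with a follistatin domain that is related to SPARC, was lower than at D0 in all 6 later libraries. It lies on chromosome 3 from 120392293 to 120451253 (minus strand, ENSG00000163430.11), and 3.62% of its exon bases are covered by a gene on the other strand. Its levels were 2127, 1313, 1291 and 1410 CPM in experiment 1 and 1819, 1231, 868 and 1087 CPM in experiment 2. Both D0 libraries lay above all 6 others, as they did for 4.74% of the 13798 genes tested. The fitted log2 fold change was -0.63 ± 0.31 for D4, -0.87 ± 0.31 for D7 and -0.66 ± 0.31 for D10 medium, with unadjusted p-values of 0.0725, 0.0222 and 0.0633 and adjusted p-values of 1, 0.876 and 0.683 in edgeR's test. The replicate block brought the adjusted p at D7 to 0.0944, still outside the threshold. Over the day of the medium as a number, the slope was -0.07 ± 0.03 log2 units per day (adjusted p = 0.436).

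FSTL3, a secreted antagonist of activins and myostatin, lies on chromosome 19 from 676365 to 683399 (plus strand, ENSG00000070404.9). It measured 52.9, 68.2, 55.4 and 54.5 CPM in experiment 1 and 45, 47, 46.2 and 66.9 CPM in experiment 2. The highest values were in D4 of experiment 1 and D10 of experiment 2, and the other 6 libraries lay within 45 to 55.4 CPM. The highest level was 1.52 times the lowest, and the fit gave 0.24 (D4), 0.05 (D7) and 0.31 (D10) on the log2 scale, each with a standard error of 0.25. Standard errors were 0.19 with the replicate block, and no day passed.

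Of the receptor genes, ACVR1B encodes the type I receptor ALK4. It lies on chromosome 12 from 51951667 to 51997078 (plus strand, ENSG00000135503.12). It measured 39.5, 41.8, 45.4 and 44.7 CPM in experiment 1 and 33.5, 43.8, 50.3 and 39 CPM in experiment 2. The D4 and D7 libraries were above both D0 libraries, as for 9.73% and 13.7% of all genes, and the largest fitted log2 fold change was 0.39 ± 0.20 at D7 (adjusted p = 1, edgeR). Using the replicate block it was 0.40 ± 0.15 and did not pass (adjusted p = 0.366).

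ACVR2A encodes a type II receptor and lies on chromosome 2 from 147844517 to 147930826 (plus strand, ENSG00000121989.14). It measured 5.7, 4.89, 4.51 and 4.2 CPM in experiment 1 and 6.7, 6.19, 5.32 and 5.52 CPM in experiment 2. Each later medium gave a lower level than D0 in both experiments, by at most 0.43 on the log2 scale, and the fitted changes of -0.16, -0.34 and -0.35 had standard errors of 0.31. Standard errors were 0.23 with the replicate block, and no day passed. Of its exon bases 7.98% are covered by a gene on the opposite strand.

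ACVR2B, the other type II receptor, lies on chromosome 3 from 38453851 to 38493142 (plus strand, ENSG00000114739.13). It had 18 to 70 counts and measured 2.51, 1.4, 1.91 and 3.17 CPM in experiment 1 and 4.29, 3.21, 4.18 and 5.52 CPM in experiment 2. In both experiments it was lowest at D4 and highest at D10. The fitted change of D10 against D4 was 0.91 ± 0.58 (adjusted p = 0.973, edgeR). Pairing the libraries by the replicate block gave 0.95 ± 0.29, which did not pass (adjusted p = 0.138). Within experiments 1 and 2 this log2 change was 1.10 and 0.76.

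**Figure D2:**
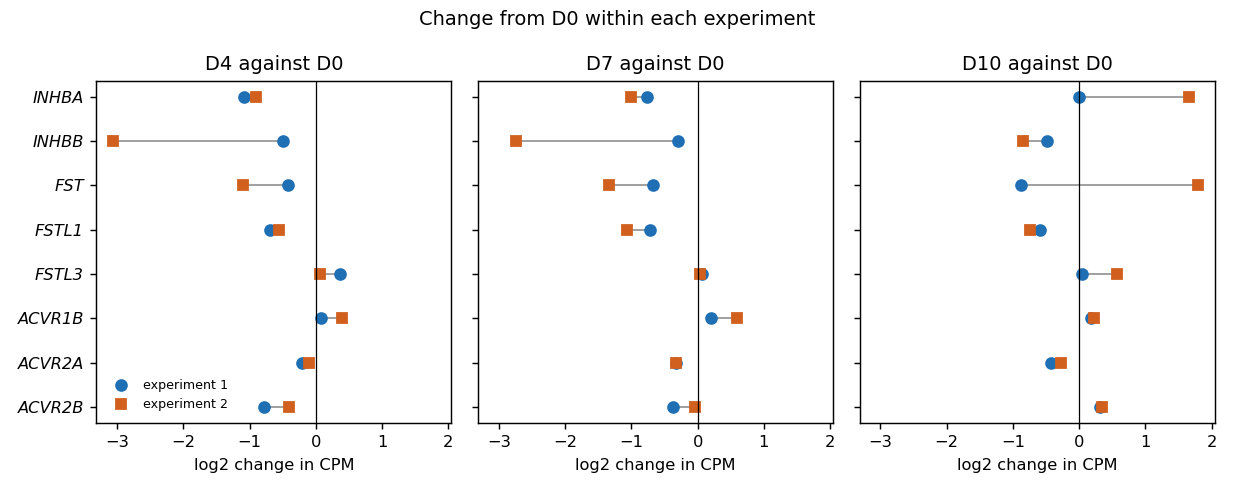
Log2 change in CPM from D0 for each gene, with experiment 1 as circles and experiment 2 as squares joined by a line, in 1 panel per medium. At D4 and D7 the 6 genes INHBA, INHBB, FST, FSTL1, ACVR2A and ACVR2B are on the left of 0 in both experiments, and at D10 the longest line is that of FST, from -0.88 to 1.80.

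Counted together, 6 of the 8 genes were lower in both experiments with D4 medium, against 28.9% of all genes tested, and the other 2, FSTL3 and ACVR1B, were higher in both, against 29.8%. With D7 medium the counts were again 6 lower (31% of all genes) and 2 higher (31.3%). With D10 medium 3 were lower in both (32.3%) and 3 higher (31.1%), and 2 fell in neither class, beside 36.6% of genes. Of these, FST was lower in experiment 1 and higher in experiment 2, and INHBA stood at its D0 level in experiment 1 and above it in experiment 2. Groups that did not overlap were lower for 3 genes at D4 (12.6% of all genes), 4 at D7 (15.2%) and 2 at D10 (16%), and higher for 1 gene at each day (9.73%, 13.7% and 15%). INHBB, kept by the filter for its high D0 and D10 libraries, is among the genes lower in both at each day. It is also among those that did not overlap at D4 and D7, and it enters the medians that follow. All of these comparisons share the D0 libraries. The median log2 fold change of the 8 genes was -0.60 at D4, -0.60 at D7 and 0.25 at D10, against 0.01, -0.00 and 0.00 over all genes tested.

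At an adjusted p under 0.05 edgeR called 0 of the 8 genes at D4, D7 or D10 against D0, beside 0%, 0% and 0.29% of all genes, and at an unadjusted p under 0.05 it called 1, 2 and 0 of them, beside 2.96%, 4.34% and 7.94% of all genes. INHBB, kept by the filter for its high libraries, was the 1 at D4 and 1 of the 2 at D7, and the other at D7 was FSTL1. DESeq2 also called 0 of the 8 at each day. D10 against D4 gave 0 beside 0.00725% of all genes, and 2 beside 5.7% at an unadjusted p under 0.05. The slope over days gave 0 beside 1.18%. With the replicate block, 1 of the 8, INHBA, was called for D10 against D4, beside 2.55% of all genes.

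The fitted change of INHBA and FST at D10 depended on which D10 library entered. Without D10 of experiment 2, the log2 fold change against D0 was -0.62 ± 0.65 for INHBA and -1.30 ± 0.36 for FST (adjusted p = 0.999 and 0.418, edgeR). Without D10 of experiment 1 it was 2.11 ± 0.60 and 2.14 ± 0.33 (adjusted p = 0.2 and 0.0394), and FST then passed the threshold, beside 1.08% of all genes. It also did against D4 (2.94 ± 0.33, adjusted p = 0.0187), beside 0.578%. These calls assume that the lone D10 library varies like the other groups. The fits have no experiment term, so each sets 1 D10 library against the D0 or D4 libraries of both experiments. Within experiment 1, INHBA was at 33.1 CPM with both D0 and D10 medium, and FST changed by -0.88 on the log2 scale. Within experiment 2 the D10 change from D0 was 1.66 for INHBA and 1.80 for FST. FSTL1 was below D0 with either library left out.

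**Figure D3:**
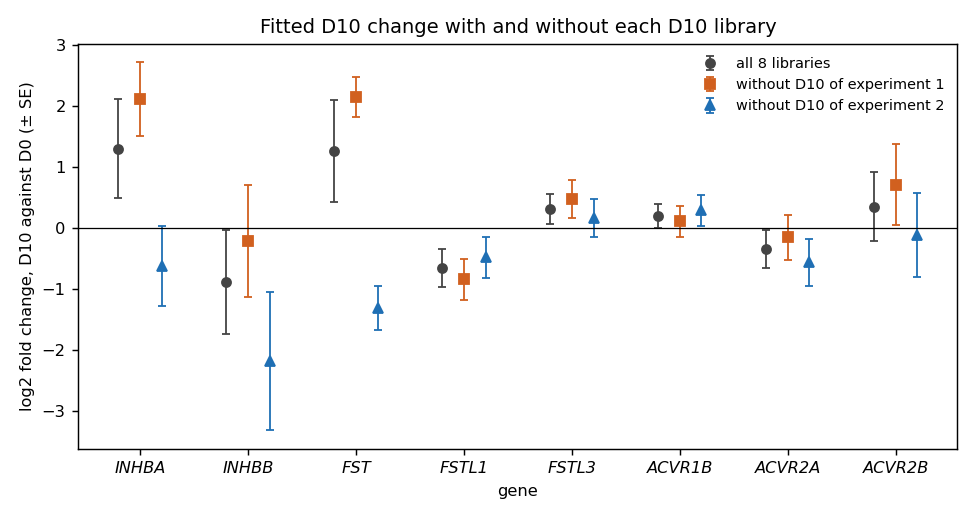
Fitted log2 fold change of D10 against D0 (points, with bars of 1 SE) for each gene, from all 8 libraries and with either D10 library left out. The fits have no experiment term. For FST the estimate goes from 2.14 to -1.30 and for INHBA from 2.11 to -0.62, while FSTL1 remains between -0.84 and -0.48.

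Whether D10 of experiment 2 differed beyond the general difference between the experiments was tested with a term added after the data had been seen. In a fit with medium and experiment, FST was higher in that library by 3.13 ± 0.29 on the log2 scale, or 8.76-fold (adjusted p = 7.7e-05, edgeR), and INHBA by 1.68 ± 0.24, or 3.2-fold (adjusted p = 0.0019). These were 2 of the 8 genes, beside 3.09% of all genes tested. Both kept the call under each alternative run, and leaving out any other library gave 3.01 to 3.39 for FST and 1.57 to 1.79 for INHBA. FSTL3 stood higher by 0.64 ± 0.23 (adjusted p = 0.172). The term rests on 1 library, and COL1A1 differed in the same test by -2.63 (adjusted p = 0.00146).

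Apart from the D10 medium, the experiments differed in the level of some of the 8 genes. INHBA was higher in experiment 2 with each of the 4 media, by 2.07, 2.36, 1.76 and 6.55 times at D0, D4, D7 and D10. ACVR2B was also higher with each, by 1.71, 2.3, 2.19 and 1.74 times. The fitted difference between the experiments was 1.46 ± 0.28 on the log2 scale for INHBA (adjusted p = 0.00635, edgeR) and 0.96 ± 0.20 for ACVR2B (adjusted p = 0.00928). These were 2 of the 8 genes, beside 34.8% of all genes tested. With either D10 library left out the INHBA difference was 1.03, still past the threshold, and FSTL3 passed as well, at -0.35 (adjusted p = 0.0279 and 0.0286), beside 39% and 39.2% of all genes. FST was 1.67, 1.04, 1.05 and 10.7 times as high in experiment 2 as in experiment 1, and its fitted difference of 0.98 ± 0.51 did not pass (adjusted p = 0.164). Under 1 of 12 alternatives FST did pass. ACVR2A was higher in experiment 2 with 4 of 4 media and FSTL1 lower with all 4, beside 25.7% of all genes that were higher and 25.6% that were lower with all 4. Neither passed the reported test, and FSTL1 passed under 1 of 12 alternatives.

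Divided by the length of their exons, the 8 genes spanned a wide range. The median CPM per kilobase was 149 for FSTL1, 37.7 for FST, 17.5 for FSTL3, 7.53 for ACVR1B, 4.04 for INHBA, 0.8 for ACVR2A, 0.202 for ACVR2B and 0.109 for INHBB. The follistatin group thus lay above the type I receptor, and the type I receptor above both type II receptors, in every library. The ranges of the 8 libraries did not overlap between FST and FSTL3, FSTL3 and ACVR1B, INHBA and ACVR2A, or ACVR2A and ACVR2B. ACVR1B overlapped INHBA and ACVR2B overlapped INHBB, so their order is not fixed. FSTL1, at 99.4 to 244, overlapped FST only through D10 of experiment 2, where FST reached 288 CPM per kilobase.

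**Figure D4:**
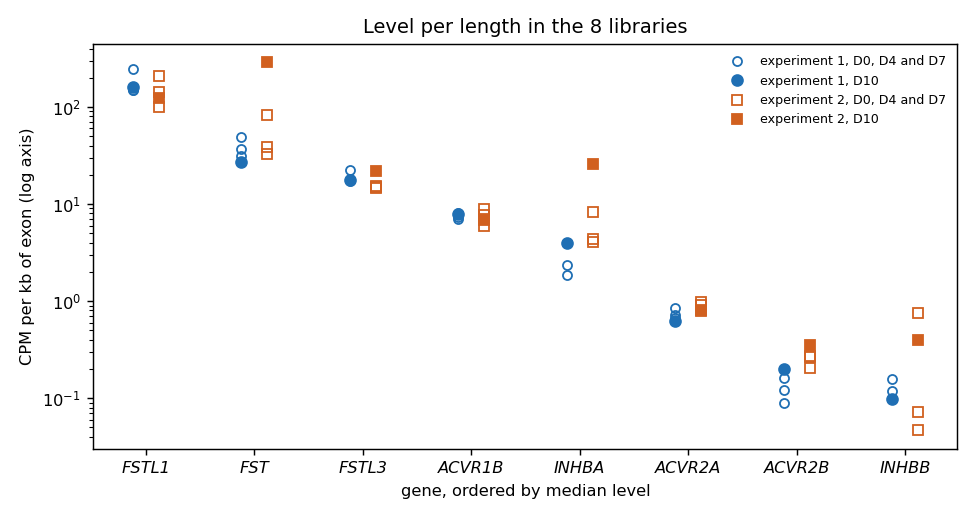
CPM per kilobase of exon (log axis) of the 8 genes in every library, ordered by their median, with filled symbols for D10 and open symbols for the other media. FST and INHBA have their highest values, 288 and 26.1, in D10 of experiment 2, and INHBB and ACVR2B fill the lowest part of the range.

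FST exceeded INHBA per length in all 8 libraries. The FST level was 12.4, 19.8, 13.3 and 6.73 times that of INHBA at D0, D4, D7 and D10 in experiment 1, and 10, 8.77, 7.97 and 11 times in experiment 2. The steep D10 rise in experiment 2 therefore involved both genes and left their ratio inside the range of the other libraries. Within experiment 2 alone the D10 ratio was the highest. The log2 ratio of INHBA to FST was -3.48 ± 0.21 with D0, -3.72 ± 0.83 with D4, -3.36 ± 0.52 with D7 and -3.11 ± 0.51 with D10 medium (SD, n = 2). The libraries of D4, D7 and D10 each spread over more than the mean differed from that at D0, and no test was made of this ratio.

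**Figure D5:**
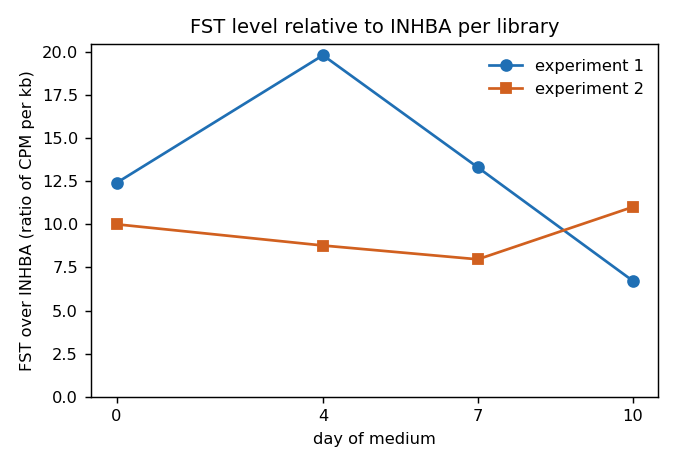
Ratio of FST to INHBA in CPM per kilobase in each library against the day of the medium, with a line for each experiment. The ratio lies between 6.73 and 19.8 and does not move the same way in the experiments.

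Genes with a pattern like that of INHBA or FST were sought among 4591 genes by Pearson's r of log2 CPM over the 8 libraries, centred within each experiment. This likeness is a description, and the points share the D10 library of experiment 2. The closest to INHBA were MSC (r = 0.9889), SLC23A2 (0.9827) and ADARB1 (0.9799). MSC, which encodes the transcription factor musculin, measured 10.5, 6.52, 7.33 and 11.6 CPM in experiment 1 and 10.1, 7.68, 7.59 and 25.2 CPM in experiment 2. The closest to FST were SHMT2 (0.9866), the mitochondrial serine hydroxymethyltransferase, MARS (0.9858), the methionyl-tRNA synthetase, and RCAN1 (0.9854), a regulator of calcineurin. FST itself ranked 125 in likeness to INHBA, with r = 0.891.

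The rest of the pathway was read from lists of 53 genes, of which 50 were in the table and 35 were tested. None was called at D4 or D7. At D10 1 gene was called, beside 0.29% of all genes, and it fell. That gene was BAMBI, which encodes a pseudoreceptor that damps signaling by TGF-β family receptors. It measured 63.9, 18.2, 14.6 and 14.9 CPM in experiment 1 and 43.2, 14.8, 13.7 and 12.5 CPM in experiment 2. Both D0 libraries stood above all others, as for 4.74% of all genes tested. The log2 fold change at D10 was -1.97 (adjusted p = 0.0402, edgeR). With only the compared groups in the fit, 0 genes were called at D10, so this call was lost. With the replicate block, which called 0.275%, 1.25% and 4.99% of all genes on the successive days, BAMBI also passed at D4 (-1.68, adjusted p = 0.0136) and D7 (-1.89, adjusted p = 0.00568). In its list of 14 antagonists and follistatin-domain relatives, 5 were tested, and the next in size at D10 was SPARC, a collagen-binding matrix protein, at 1441 to 4661 CPM (-0.56 ± 0.49, adjusted p = 0.998).

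Among 5 other ligands and subunits, 3 were tested and 0 passed at any day against D0. INHBE, the inhibin beta E subunit, measured 1.51, 0.854, 0.229 and 0.554 CPM in experiment 1 and 2.91, 0.447, 0 and 9.23 CPM in experiment 2. These were 18, 11, 3 and 7 counts and then 40, 6, 0 and 117. Outside D10 of experiment 2 the INHBE levels thus rest on few counts. Like INHBA and FST it was highest in D10 of experiment 2, and that library differed by 3.86 in the term described above (adjusted p = 0.0268, edgeR). INHA, the alpha subunit that turns activins into inhibins, was at 0.317 to 1.66 CPM. Its counts were 8, 5, 6 and 4 in experiment 1 and 22, 20, 19 and 21 in experiment 2. The filter kept INHA for its experiment 2 libraries, so its higher level there, by 1.75 on the log2 scale, is given as a description.

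Of 7 other receptors and coreceptors, 6 were tested and 0 passed against D0. ACVRL1, a type I receptor for BMP9 and BMP10, measured 15.2, 33.4, 38.3 and 51.3 CPM in experiment 1 and 8.88, 23.6, 38.8 and 18.4 CPM in experiment 2. Every later library exceeded both D0 libraries, as for 3.18% of all genes, and with the replicate block the gene passed at D7 (1.76, adjusted p = 0.0383) and D10 (1.47, adjusted p = 0.0311). TGFBR1, the type I receptor for TGF-β, measured 38.7, 23.6, 28.3 and 37.5 CPM in experiment 1 and 93, 44.2, 45.9 and 140 CPM in experiment 2, with lower levels at D4 and D7 than at D0 in both. Its log2 fold change from D0 was 0.43 ± 0.65 at D10 (adjusted p = 0.998), and with the replicate block D10 against D4 passed (1.22 ± 0.26, adjusted p = 0.0495). That block fit was not repeated without D10 of experiment 2, where TGFBR1 was highest. TGFBR2, its type II partner, was at 394 to 659 CPM in the other libraries and at 293 CPM in D10 of experiment 2, which differed by -1.16 in the added term (adjusted p = 0.0294).

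Of 8 SMAD2/3 transducers and inhibitors, 7 were tested, and of 14 response genes, 13 were in the table and 12 were tested, with 0 passing against D0 in either list. Among the response genes COL1A1 had the largest fitted log2 fold change at D10, -1.11 ± 0.77 (adjusted p = 0.967, edgeR). Its level was lowest in D10 of experiment 2. SMAD3 measured 326 to 552 CPM in the other libraries and 148 CPM in D10 of experiment 2, where it differed by -1.88 (adjusted p = 0.00238, edgeR). CCN2, a matrix-associated target of SMAD signaling listed under its older symbol CTGF, measured 1563, 1100, 853 and 1141 CPM in experiment 1 and 2137, 1295, 1111 and 2960 CPM in experiment 2. Like INHBA it was lower at D4 and D7 than at D0 in both experiments, and D10 of experiment 2 differed by 1.02 (adjusted p = 0.0454). BHLHE40, a transcriptional repressor, measured 39.3 and 40.5 CPM at D0 and 19.8 and 18.4 CPM at D10, a log2 fold change of -1.06 (adjusted p = 0.0835) that passed with the replicate block (-1.07, adjusted p = 0.00617). SMAD7, the inhibitory SMAD, is in both lists and measured 11.6, 10.4, 10.8 and 18.8 CPM in experiment 1 and 10, 12.7, 22.2 and 21.1 CPM in experiment 2 (0.88 ± 0.35 at D10, adjusted p = 0.537). SMURF1, a ubiquitin ligase for SMADs and receptors, was at 47.6 to 85.2 CPM (0.48 ± 0.22, adjusted p = 0.652).

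Of 4 proteases that process the precursors, 3 were tested and 0 passed against D0. PCSK7 was at 48.5 to 96.6 CPM and PCSK5 at 15 to 26.9 CPM, with log2 fold changes at D10 of -0.35 ± 0.27 and 0.30 ± 0.22 (adjusted p = 0.998 and 0.993, edgeR).

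Over all the lists, the added term for D10 of experiment 2 called 2 genes higher, INHBE and CCN2, and 3 lower, TGFBR2, SMAD3 and COL1A1, beside 3.09% of all genes. The experiments differed in 13 of the 35 genes tested, or 37.1%, beside 34.8% of all genes, with 7 higher and 6 lower in experiment 2. Those higher were INHA, TGFBR1, SPOCK1, SMAD4, SKIL, CCN2 and JUNB, and among those lower were GDF11, ACVRL1, TGFBR3L, SPARC and FURIN. INHA counts among those higher although the filter kept it for its experiment 2 libraries.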

How the data were processed

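RNA of 8 libraries was poly(A)-selected and sequenced from stranded libraries. The authors deposited raw counts per gene, not normalized, and RPM values not used here. STAR 2.5, DESeq2 and GRCh38 are named in the submitters' processing notes, while the counter and its strand setting are not given in the sources used here. The header of 1 column reads DO and was taken as D0 replicate 1. Genes were filtered with filterByExpr, which left 13798 with all 8 members, scaled by TMM and tested with edgeR 4.0.16 (R 4.3.3) in 1 fit of all libraries, with Benjamini-Hochberg adjustment over all genes tested and a threshold of 0.05. Log2 changes within an experiment used CPM with a prior count of 2. Exon lengths came from GENCODE 29, which holds 99.6% of the gene identifiers. Genes alike were compared where the SD of log2 CPM reached 0.3. Replicate numbers mark the independent experiments, and deviations of same-numbered libraries from group means correlated across genes with r of 0.418 to 0.722, so the numbers pair the libraries. The reported fit has no experiment term, and the pairing enters as the replicate block. The alternatives were DESeq2 1.42.0 and its size factors, the replicate block, leaving out each library, only the groups compared, and either no filter or a minimum of 10 counts per library. The members, all of which are named, the pathway lists and the markers were chosen with earlier results of these data known. From each list the 2 tested genes with the largest D10 change and those called were named, apart from 1 gene whose results are not reported here. The fits were tested on simulated data. Counting error is largest for INHBB, ACVR2A and ACVR2B.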

Additional observations from a re-analysis of the deposited data

Results flagged for a closer look

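FST and INHBA differed between the experiments in the response to D10 medium. FST in D10 of experiment 2 exceeded what medium and experiment gave by 3.13 on the log2 scale, and INHBA by 1.68, in a test of the difference itself (adjusted p = 7.7e-05 and 0.0019, edgeR) that was added after the data had been seen. Each experiment has 1 library at D10, so a difference between the experiments and a property of that library cannot be told apart.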

How the results depend on the processing

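For the 8 genes in 7 comparisons, 718 alternative values were computed, of which 686 kept the direction and the call, 8 passed the threshold only under the alternative, 0 lost a call and 24 changed sign, all 24 on leaving out 1 library. Of the 8 genes, 1 was called for D10 against D4 without a filter and 1 with the replicate block, which changed no other call of the 8 genes.

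Genes called over the whole table were 47, 117 and 390 with DESeq2 at D4, D7 and D10 and 21, 93 and 371 without a filter, against 0, 0 and 40 in the reported fit. The replicate block called 38, 172 and 688, at least 10 counts in every library 20 at D10, and the compared groups only 0 at D10. D10 against D4 gave 1, and 6 with DESeq2 size factors, 157 with DESeq2, 147 without a filter, 352 with the replicate block and 6 with the compared groups only. The slope gave 163, and 494 with DESeq2 and 593 with the replicate block. The added D10 term gave 426, and 861 without a filter. The log2 ratio of INHBA to FST at D0 was -3.25 with the longest transcript. The cause of these differences was not tested.

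Leaving out each library in turn gave 0 to 0 genes called at D4 and D7, 0 to 155 at D10, 0 to 83 for D10 against D4, 36 to 155 for the slope and 44 (without D4 of experiment 2) to 1149 (without D7 of experiment 2) for the added term. Members called ran from 0 to 1 at D10 and for D10 against D4, and from 2 to 3 between experiments. The ratio of INHBA to FST ran from -3.63 to -3.32 at D0 and -3.47 to -2.75 at D10. Log2 fold changes that changed sign ran from -0.06 to 0.48 for FSTL3 at D4, and at D7 from -0.83 to 0.29 for ACVR2B and -0.08 to 0.18 for FSTL3. At D10 they ran from -2.18 to 0.63 for INHBB, -0.11 to 0.78 for ACVR2B, -1.30 to 2.14 for FST and -0.62 to 2.11 for INHBA. For D10 against D4 they ran from -0.40 to 0.00 for ACVR2A, -0.22 to 0.15 for FSTL1, -0.49 to 2.94 for FST, -0.13 to 0.06 for ACVR1B and -0.18 to 0.38 for FSTL3. Slopes ran from -0.29 to 0.11 for INHBB, -0.01 to 0.09 for ACVR2B, -0.13 to 0.18 for FST and -0.08 to 0.21 for INHBA. The difference between experiments ran from -0.13 to 0.00 for ACVR1B, just above 0 without either D0 library, and the added term from -0.22 to 0.04 for FSTL1. The left-out fits of the days and of the slope had no experiment term, so leaving out 1 library also unbalanced the experiments. Within experiments 1 and 2 the D10 change from D0 was -0.48 and -0.85 for INHBB and 0.32 and 0.35 for ACVR2B. For FST it was -0.88 and 1.80, and INHBA stood at its D0 level in experiment 1 and 1.66 above it in experiment 2. Pairs of libraries and, for INHBB, 2 to 33 counts limit what these data can show.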
